A study of Mus musculus with 8 samples.

Results

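The genes described here encode enzymes that lengthen fatty acids or place double bonds in them: the elongases Elovl1, Elovl2, Elovl3 and Elovl5, the ketoacyl-CoA reductase Hsd17b12, and the desaturases Fads1, Fads2, Fads3, Fads6 and Scd2. They were taken by gene symbol, 10 of the 55487 genes in the deposited count table, and all 10 were among the 13312 that passed the filter on low counts. The data are bulk poly(A) RNA sequencing of mouse liver, from males of the inbred strain C57Bl/6J at about 10 weeks of age. One group of 4 libraries came from mice given 17 mg of potassium sorbate by oral gavage. The other group of 4 came from mice given water (control), and both were collected 4 hours after the gavage. Sorbate is the salt of sorbic acid, an unsaturated fatty acid with a short chain that is added to foods to preserve them. The labels describe no genetic change in either group, and they do not say whether each library is a separate animal, so p-values here refer to library-to-library spread, which may be technical.

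Fatty acids are lengthened in the endoplasmic reticulum by a cycle in which an ELOVL enzyme joins malonyl-CoA to an acyl-CoA and HSD17B12 performs the first reduction, followed by a dehydratase and another reductase. FADS2 and FADS1 place double bonds into the essential fatty acids linoleic and alpha-linolenic acid, alternating with elongation by ELOVL5 and ELOVL2, and this route yields arachidonic and docosahexaenoic acid. The liver is a main site of that synthesis, and stearoyl-CoA desaturases such as SCD2 make monounsaturated fatty acids there and in other tissues. In mouse liver, genes of this family are known targets of the transcription factors SREBP1c, LXR and PPAR-alpha.

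Sorbate-treated livers had less mRNA of Elovl3, Elovl1 and Hsd17b12 and more of Fads6. Elovl3 differed most, at 125 ± 38.3 CPM with sorbate and 373 ± 171 CPM in the controls (SD, n = 4 each; CPM, the gene's reads scaled to a common TMM-adjusted library size). Elovl1 and Hsd17b12 fell by 29.3% each, and Fads6 was 1.58-fold higher. The main genes of the polyunsaturated route, Fads1, Fads2, Elovl2 and Elovl5, did not pass the test. Of the 10 genes, 1 was called higher and 3 lower at an adjusted p of 0.05 in edgeR's quasi-likelihood test. Among all 13312 genes tested, 6.14% were called higher and 6.3% lower, 12.4% in all. The groups did not overlap in those same 4 genes, where 17.7% of all genes tested showed no overlap (9.42% with sorbate above and 8.32% with sorbate below). The median log2 fold change was −0.24 over the 10 genes and −0.02 over all genes tested. The 10 genes were chosen with earlier results of these data known, so these shares and medians cannot be compared as a test.

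**Figure D1:**
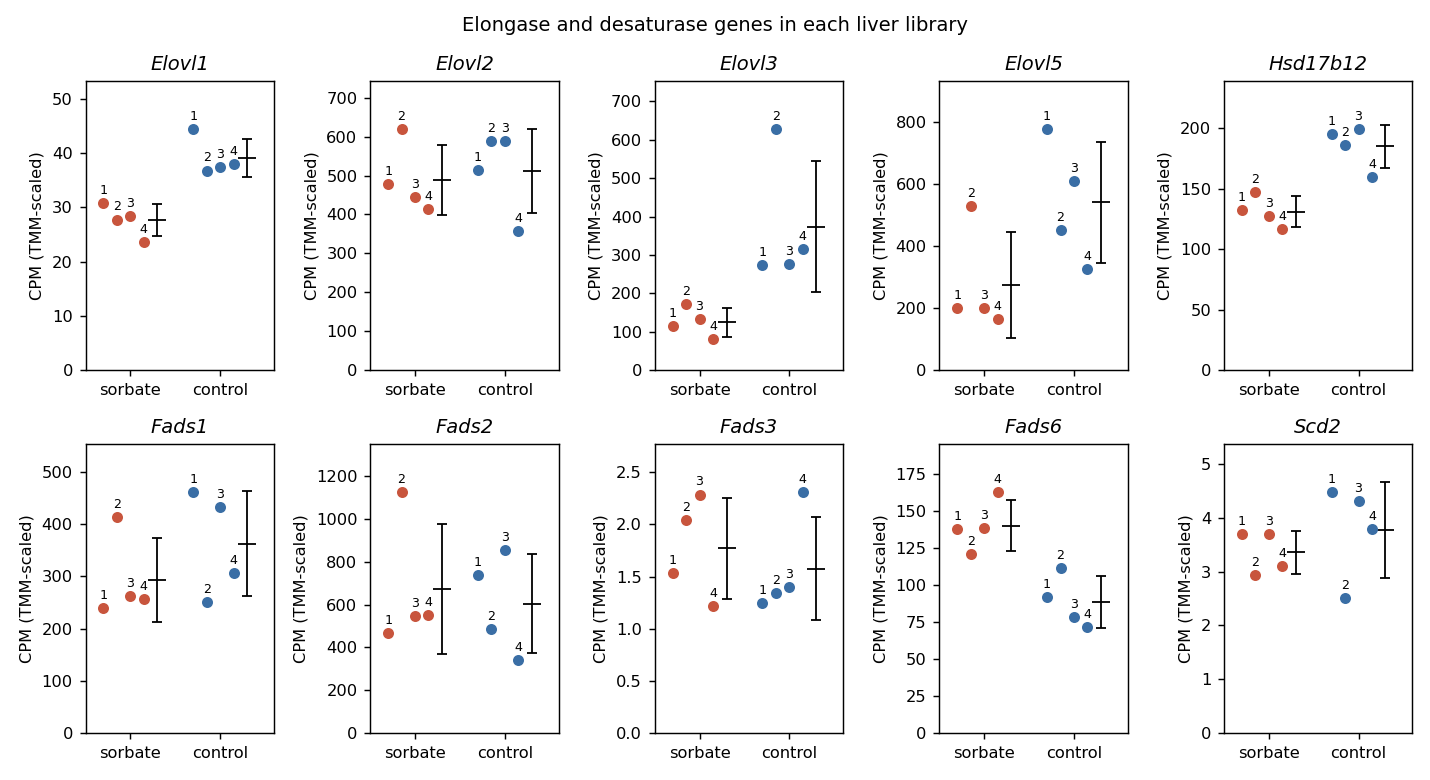
CPM of each of the 10 genes (vertical axes, linear from 0) in the 4 sorbate and 4 control libraries; points are libraries with their replicate numbers, and the bar shows the mean and SD. Sorbate and control points separate for Elovl1, Elovl3, Hsd17b12 and Fads6, and sorbate 2 stands above the other sorbate libraries for Elovl5, Fads1 and Fads2.

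The libraries held 15773932 to 25844731 reads with sorbate and 17725351 to 22183016 in the controls. Control 2 stood apart from the other controls on the first principal component of log2 CPM, at 15.4 against −49.1 to −42.1, and nearer to the sorbate libraries at 21.9 to 37.8. Hepatocyte markers (7 of 8 listed were found, all tested, 1 higher) summed to 77516 to 100410 CPM with sorbate and 65847 to 81969 CPM in the controls. Kupffer cell and macrophage markers (8 of 8 tested, 4 lower) summed to 141 to 273 CPM with sorbate, 362 to 471 CPM in controls 1, 3 and 4, and 196 CPM in control 2. Sinusoidal endothelial markers (6 of 6 tested, 1 lower) summed to 135 to 160 CPM with sorbate, 221 to 258 CPM in controls 1, 3 and 4, and 123 CPM in control 2. Bile duct markers (4 of 6 tested, 2 lower) stood at 27.6 to 42.4 CPM with sorbate and 52.0 to 248 CPM in the controls, with 52.0 CPM in control 2. Most of that sum was Spp1, at 24.3 to 37.2 CPM with sorbate and 47.7 to 238 CPM in the controls. Sox9 was at 1.19 to 2.32 CPM with sorbate and 2.68 to 7.72 CPM in the controls. Krt7, Krt19, Epcam and Cftr were at most 1.97 CPM in any library, and each overlapped between the groups. Red cell transcripts (5 of 5 tested, 4 lower) stood at 251 to 373 CPM with sorbate and 331 to 1373 CPM in the controls, with 331 CPM in control 2. The 4 lower genes were globins. The remaining gene, Alas2, was not called and leaned the other way, at 130 to 168 CPM with sorbate and 106 to 140 CPM in the controls. Stellate cell markers (6 of 6 tested, 0 called) stood at 123 to 213 CPM with sorbate and 120 to 185 CPM in the controls. Monocyte markers (4 of 5 tested, 0 called) summed to 3.04 to 8.53 CPM with sorbate and 4.41 to 12.9 CPM in the controls, with control 2 at that lower end. Lymphocyte markers (0 of 6 tested) summed to 0.972 to 2.15 CPM with sorbate and 1.01 to 1.64 CPM in the controls, and adipocyte markers (0 of 5 tested) to 0.243 to 0.889 CPM with sorbate and 0.168 to 1.6 CPM in the controls. Neutrophil markers (1 of 6 tested, lower) summed to 0.149 to 0.934 CPM with sorbate and 0.894 to 20.7 CPM in the controls. Control 2 held that lower end, and controls 1, 3 and 4 held 11.3 to 20.7 CPM. The granule genes Ngp and Camp were at 0 in all 4 sorbate libraries. They were near 0 in the controls as well, at 0.0559 to 0.639 CPM for Ngp and 0 to 0.197 CPM for Camp. In bulk RNA, fewer cells of a type and less RNA per cell cannot be told apart. The part of these other cell types in the differences below was not tested.

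Elovl3 elongates saturated and monounsaturated very long-chain acyl-CoA and is known in mouse liver for rhythmic, male-biased expression. It lies on chromosome 19 (GRCm38, 46131897 to 46135694, plus strand). Its level was 114, 172, 133 and 80.1 CPM in sorbate libraries 1 to 4, against 273, 628, 276 and 316 CPM in controls 1 to 4. Every sorbate library lay below every control, and control 2 lay far above the other 3 controls. The log2 fold change was −1.58 (SE 0.30, adjusted p = 0.01003). The call held in all 8 fits that left out 1 library, and the value was −1.20 without control 2.

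Elovl1 makes the very long saturated and monounsaturated acyl chains found in sphingolipids. It lies on chromosome 4 (118428093 to 118432953, plus strand). The sorbate libraries held 30.8, 27.7, 28.3 and 23.6 CPM, against 44.4, 36.8, 37.5 and 37.9 CPM in the controls. The groups were narrow and separate, and control 2 was level with controls 3 and 4. The log2 fold change was −0.50 (SE 0.11, adjusted p = 0.01858). The call was lost without sorbate 3 (adjusted p = 0.0518) and without sorbate 4 (adjusted p = 0.0566). With libraries scaled by total count alone it was −0.38 (adjusted p = 0.0504).

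Hsd17b12, the reductase that serves the cycle of every elongase, lies on chromosome 2 (94032689 to 94157964, minus strand). It measured 132, 147, 127 and 117 CPM with sorbate, against 195, 186, 199 and 160 CPM in the controls. The groups did not overlap, and sorbate 2 and control 4 came closest to each other. The log2 fold change was −0.50 (SE 0.12, adjusted p = 0.02064). The call was lost when control 1, control 3 or any sorbate library but sorbate 2 was left out (0.0513 to 0.0724 as adjusted p), and the direction held in all 8 fits. Scaling by total count alone also ended it (−0.38, adjusted p = 0.0737).

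Fads6 belongs to the desaturase family by sequence, and its substrate is less well known than those of Fads1 and Fads2. It lies on chromosome 11 (115279622 to 115297663, minus strand). Sorbate livers held 138, 121, 139 and 163 CPM, against 91.9, 112, 78.2 and 71.8 CPM in controls. All 4 sorbate libraries were above all 4 controls, with control 2 the highest control. The log2 fold change was 0.66 (SE 0.15, adjusted p = 0.02026). Leaving out control 3, control 4 or any sorbate library other than sorbate 2 ended the call (0.0515 to 0.0708 as adjusted p). Without control 2 the log2 fold change was 0.81.

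In control 2, the library that stood apart, Elovl1, Hsd17b12 and Elovl3 lay above every sorbate library. Its summed markers of other cell types took different places. Kupffer cell, red cell, neutrophil, monocyte and lymphocyte markers lay inside the sorbate range. Endothelial, stellate cell and adipocyte markers lay below it. Bile duct markers, mostly Spp1, lay above the sorbate range and below the other controls. This is 1 library, and the part of other cell types in the gene differences was not tested. Fads6 in control 2 lay between the other controls and the sorbate libraries. With 1 surrogate variable as a covariate, estimated from all genes, Elovl3 kept its call (log2 fold change −1.88, adjusted p = 0.00158), and Elovl1, Hsd17b12 and Fads6 lost theirs (−0.43 with an adjusted p of 0.0838 for Elovl1, −0.48 with 0.0653 for Hsd17b12, and 0.46 with 0.103 for Fads6). That variable stood at 0.4791 in control 2, from 0.062 to 0.2828 in the sorbate libraries and from −0.5118 to −0.3621 in the other controls, so it moved with the groups.

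**Figure D2:**
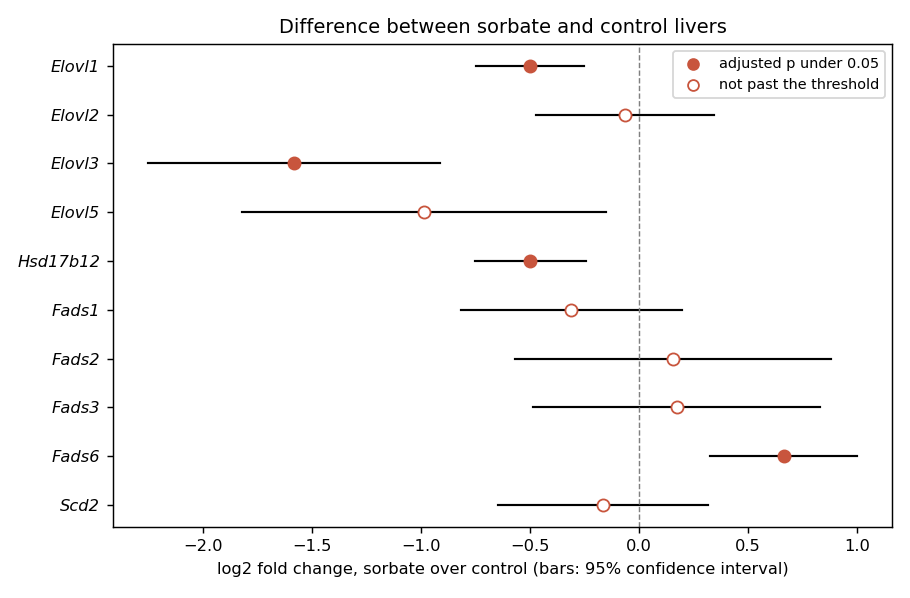
Log2 fold change of sorbate over control for each gene, with the 95% confidence interval as a bar; filled points passed an adjusted p of 0.05. Elovl3 at −1.58 and Fads6 at 0.66 mark the ends of the range, and the interval of Elovl5 lies below 0 although its adjusted p of 0.112 missed the threshold.

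The promoters of the 3 called genes with an entry in the RefSeq table are shown because Elovl1 and Hsd17b12 fell by the same amount and Fads6 differed in the other direction. They are read 5′ to 3′ on the strand of the gene, from 250 bases before the RefSeq start (GRCm38.p6) up to the outermost base that GENCODE vM21 gives to the gene. Capitals mark matches on either strand to the GC box GGGCGG, the CCAAT box CCAAT and the direct repeat AGGTCA, any 1 base, GGGTCA. In Elovl1 one GC box and the CCAAT box share letters. A second Elovl1 promoter entry, with GGGCGG beginning 48 and 37 bases before its start, is not printed.
Elovl1, chr4:118427843-118428092, plus strand: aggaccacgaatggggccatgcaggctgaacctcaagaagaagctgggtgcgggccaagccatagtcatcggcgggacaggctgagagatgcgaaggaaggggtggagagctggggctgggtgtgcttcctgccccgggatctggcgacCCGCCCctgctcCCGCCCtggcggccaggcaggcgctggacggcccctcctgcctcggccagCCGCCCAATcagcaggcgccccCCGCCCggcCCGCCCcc
Hsd17b12, chr2:94157965-94158159, minus strand: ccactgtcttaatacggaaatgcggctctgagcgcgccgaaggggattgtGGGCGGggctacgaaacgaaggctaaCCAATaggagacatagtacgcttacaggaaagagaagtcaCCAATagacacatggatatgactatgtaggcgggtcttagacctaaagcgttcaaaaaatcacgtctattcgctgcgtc
Fads6, chr11:115297664-115297812, minus strand: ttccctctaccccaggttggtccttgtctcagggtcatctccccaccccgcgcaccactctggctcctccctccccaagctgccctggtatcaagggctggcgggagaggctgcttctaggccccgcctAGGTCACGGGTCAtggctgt

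Over the full 250 bases before each RefSeq start, 7 of the 10 genes had an entry, with 9 entries in all. A gene is counted below if any of its entries matched, while the shares of all promoters are per entry. The counts and shares are therefore not on the same basis. Elovl3, Fads1 and Scd2 had none. GGGCGG occurred in 6 of the 7 (Elovl1, Elovl2, Fads2, Fads3, Fads6 and Hsd17b12) and in 32.7% of the 32851 promoters of the table. CCAAT occurred in 4 of the 7 (Elovl1, Elovl5, Fads3 and Hsd17b12) and in 33.8% of all promoters. The GC box of Fads6 lies in bases that are not printed. The E-box CACGTG was found in Elovl5, at 6.02% of all promoters. AGGTCA and GGGTCA with 1 base between them, a direct repeat of the type that PPAR and HNF4 nuclear receptors recognise, began 121 bases before the start of Fads6 and were found in 8 promoters of the table (0.0244%). This spelling was added to the search after the Fads6 sequence had been read. The windows of these 7 genes held no D-box TTATGTAA (0.819% of all promoters) and no sterol element TCACNCCAC (1.05%). They also held no direct repeat of AGGTCA with 1 base (0.0335%) or 4 bases (0.0152%) between the copies.

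Elovl5, which elongates the products of Fads2, averaged 273 ± 171 CPM with sorbate and 541 ± 195 CPM in controls (SD, n = 4 each) and did not pass the test. It lies on chromosome 9 (77917364 to 77984519, plus strand). Its values were 199, 528, 199 and 166 CPM in the sorbate libraries, against 776, 452, 609 and 326 CPM in the controls. Sorbate 1, 3 and 4 were below every control, and sorbate 2 lay among the controls. The log2 fold change was −0.99 (SE 0.38, 95% confidence interval −1.82 to −0.15, unadjusted p = 0.02481, adjusted p = 0.112). Without sorbate 2 the log2 fold change was −1.52 and passed the threshold (adjusted p = 0.0144). It passed with sample quality weights too (−1.25, adjusted p = 0.0143).

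Fads2, which performs the rate-limiting first desaturation of linoleic and alpha-linolenic acid, had the highest level per length in sorbate livers. It measured 470, 1128, 548 and 552 CPM with sorbate, against 737, 486, 856 and 342 CPM in the controls. The groups overlapped widely, and sorbate 2 was again the highest library. Its log2 fold change was 0.16 (SE 0.33, 95% confidence interval −0.57 to 0.88, adjusted p = 0.7899), and without sorbate 2 it was −0.21. Together the 10 genes took 0.337% of all reads in sorbate 2 and 0.185% to 0.194% in the other sorbate libraries, against 0.277% to 0.294% in controls 1 to 3 and 0.176% in control 4.

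Fads1, whose enzyme makes arachidonic and eicosapentaenoic acid, measured 239, 414, 262 and 257 CPM with sorbate, against 462, 251, 432 and 307 CPM in the controls. Control 2 stood with the low sorbate libraries and sorbate 2 with the high controls. The log2 fold change was −0.31 (SE 0.23, 95% confidence interval −0.82 to 0.20, adjusted p = 0.3977). Elovl2, needed for docosahexaenoic acid, lies on chromosome 13 (41182381 to 41220405, minus strand) and measured 478, 619, 446 and 415 CPM with sorbate, against 515, 588, 589 and 358 CPM in the controls. Its group means were 490 ± 90.0 and 512 ± 108 CPM (SD, n = 4 each), and the interval of its log2 fold change was −0.47 to 0.34 (adjusted p = 0.8456). These intervals do not show that the levels were alike.

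The enzymes Fads1, Fads2 and Fads3 are encoded side by side on chromosome 19, within 155.3 kb from 10041569 to 10196877. Fads2 (10062765 to 10101746) is on the minus strand, and Fads1 (10182888 to 10196877) on the plus strand starts 81.1 kb from the start of Fads2. Fads3 (10041569 to 10060110, plus strand) ends 2.65 kb from the end of Fads2. The neighbours had very different levels. Fads3, linked to desaturation of sphingoid bases, had 41, 46, 50 and 20 reads in the sorbate libraries, against 25, 24, 29 and 47 reads in the controls. That is 1.53, 2.04, 2.29 and 1.22 CPM with sorbate, against 1.24, 1.34, 1.40 and 2.31 CPM in the controls. The groups overlapped, and the interval of its log2 fold change ran from −0.49 to 0.83 (adjusted p = 0.7364). With so few reads, a smaller difference was not detectable at this depth.

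Scd2, a stearoyl-CoA desaturase best known from brain, was low in all libraries. It lies on chromosome 19 (44293674 to 44306864, plus strand) and had 3.70, 2.93, 3.71 and 3.10 CPM with sorbate, against 4.48, 2.51, 4.30 and 3.79 CPM in the controls. The sorbate values lay inside the range of the controls, and the log2 fold change was −0.17 (SE 0.22, 95% confidence interval −0.65 to 0.31, adjusted p = 0.6465). Its close paralog Scd1, the main hepatic form, was 1752 to 3560 times as high in CPM in sorbate libraries and 2584 to 6291 times as high in controls. How reads that match both genes were counted is not given in the sources used here, so the Scd2 value is uncertain.

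Per kilobase of exon, the 10 genes fell into a high set and a low pair. Fads2 led with sorbate at 205 ± 92.4 CPM per kb, and Elovl2 followed at 123 ± 22.7 CPM per kb. Elovl5, Elovl3, Fads1 and Hsd17b12 stood at 77.5 ± 48.4, 63.1 ± 19.4, 60.9 ± 16.8 and 54.3 ± 5.30 CPM per kb in sorbate livers (SD, n = 4), neighbours whose spreads overlap. In controls Elovl3 led at 189 ± 86.4 CPM per kb, and its SD overlapped those of Fads2 at 184 ± 70.9, Elovl5 at 154 ± 55.2 and Elovl2 at 129 ± 27.3 CPM per kb. Elovl3 was thus in place 4 with sorbate and place 1 in controls. Fads6 and Elovl1 exchanged places, at 21.1 ± 2.60 and 10.1 ± 1.09 CPM per kb with sorbate, against 13.3 ± 2.66 and 14.3 ± 1.29 CPM per kb in controls. In the controls the spreads of these 2 genes overlap. Scd2 (0.615 ± 0.0734 with sorbate and 0.690 ± 0.163 in controls) and Fads3 (0.467 ± 0.128 and 0.415 ± 0.131) were lowest. By mean level per length over all libraries, Fads2 was above 98.2% of the genes tested and Fads3 above 14.2%.

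**Figure D3:**
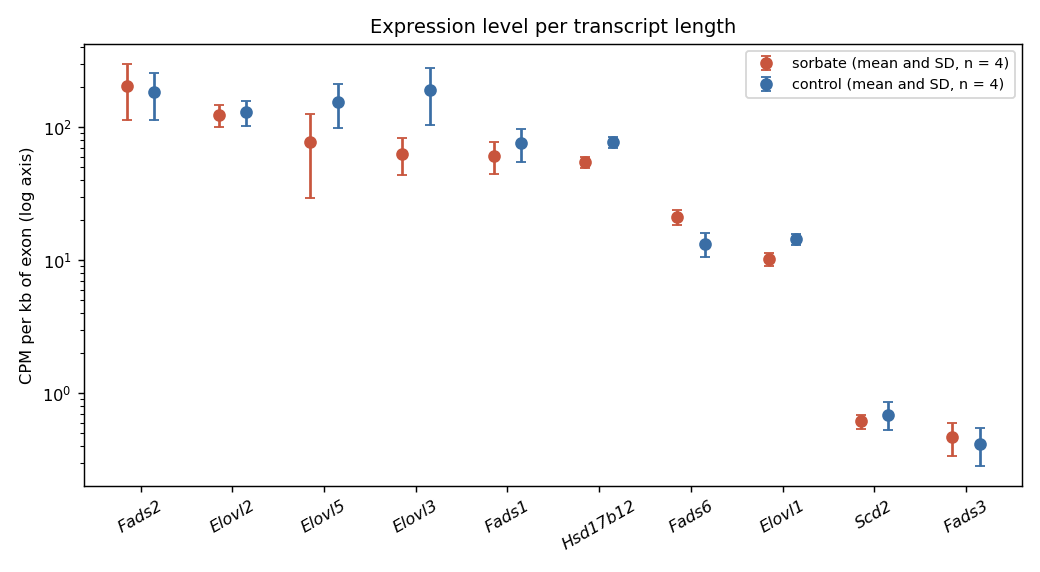
Mean CPM per kilobase of exon (log axis) of each gene in sorbate and control libraries, with the SD over 4 libraries as a bar, ordered by the sorbate level. Elovl3 has 63.1 CPM per kb with sorbate and 189 CPM per kb in controls, and Scd2 and Fads3 lie below 1.

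The other enzymes of the elongation cycle were not called. Of 8 listed genes (the elongases Elovl4, Elovl6 and Elovl7, the dehydratases Hacd1 to Hacd4 and the enoyl reductase Tecr), 6 were tested and 0 passed; their log2 fold changes had a median of −0.26. The lowest p belonged to Hacd4 (log2 fold change −0.82, SE 0.32, adjusted p = 0.1148), which passed without control 2 (−1.01, adjusted p = 0.0143). Of 9 stearoyl-CoA desaturases and electron carriers, 6 were tested, 1 rose and 2 fell, with a median of −0.23. Cyb5a, the cytochrome that hands electrons to desaturases, rose to 828 CPM with sorbate, against 583 CPM in controls (log2 fold change 0.50, adjusted p = 0.02391). Cyb5b, the form on the outer mitochondrial membrane, fell to 246 CPM with sorbate, against 367 CPM in controls (−0.58, adjusted p = 0.0296). Scd1 fell to 7722 CPM with sorbate, against 17347 CPM in controls (−1.17, adjusted p = 0.0468). Its sorbate 2 value of 10446 CPM lay above the 9786 CPM of control 4, and its call was lost in all fits without 1 library except those without control 2 or control 4 (−0.83 without control 1, adjusted p = 0.105). The calls of Cyb5a and Cyb5b ended likewise without control 1, control 3 or any sorbate library but sorbate 2 (up to 0.0847 and 0.0934).

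Malonyl-CoA is the carbon donor of elongation. Genes that make it or its precursor, use it or remove it had a median log2 fold change of −0.95 over 6 tested, with 1 higher and 2 lower. The carboxylases that make malonyl-CoA, Acaca and Acacb, were named after their values were seen. Neither was called (log2 fold changes −0.70 and −0.93, adjusted p of 0.09287 and 0.1128). Fasn, which uses malonyl-CoA to build palmitate, fell by 1.54 on the log2 scale (SE 0.40, adjusted p = 0.03218), and Acly, which makes cytosolic acetyl-CoA, fell by 1.12 (SE 0.26, adjusted p = 0.02192). Mlycd, the decarboxylase that removes malonyl-CoA, rose by 0.35 (SE 0.09, adjusted p = 0.03548). The calls of Fasn and Acly were lost in all fits without 1 library except those without control 2 or control 4 (adjusted p up to 0.0928 and 0.0683), and that of Mlycd in all but the fit without control 2 (up to 0.118). Genes of peroxisomal chain shortening, which trims the last intermediate to docosahexaenoic acid, had a median of 0.49, with 5 of 10 higher and 0 lower. The count of higher genes was 3 without control 3, sorbate 2, sorbate 3 or sorbate 4, and 3 with the surrogate variable. Decr2 rose by 0.96 (SE 0.13, adjusted p = 0.002621), Acaa1a by 0.60 (SE 0.11, adjusted p = 0.006581) and Ehhadh by 1.23 (SE 0.24, adjusted p = 0.01088). The other 2, Acaa1b and the transporter Abcd3, were named after their values were seen (log2 fold changes 1.48 and 0.66, adjusted p of 0.02531 and 0.03881). Acaa1a and Acaa1b are close paralogs that may share reads.

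**Figure D4:**
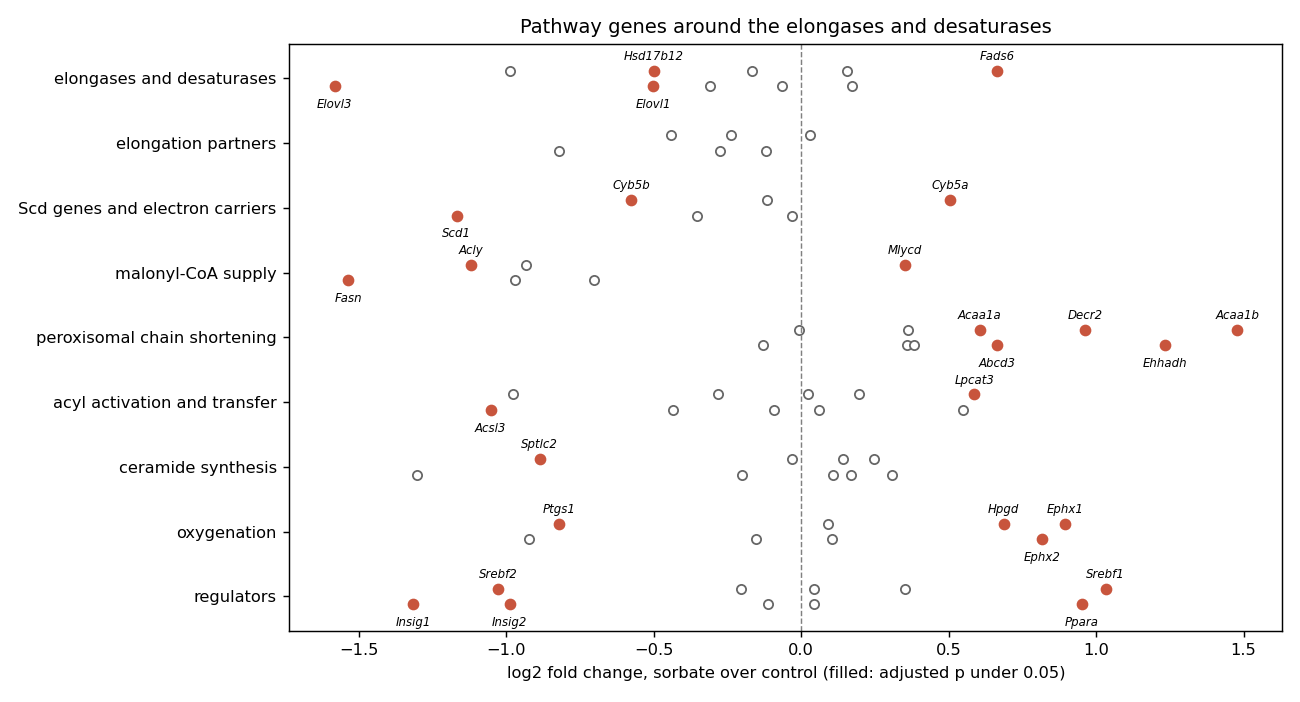
Log2 fold change of sorbate over control for the tested genes of the family (top row) and of 8 lists around it; filled and named points passed an adjusted p of 0.05. The peroxisomal list has 5 filled points to the right of 0 and none to the left, and the elongation partners have no filled point.

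Among 13 genes that activate polyunsaturated acyl chains or place them in phospholipids, 10 were tested, 1 rose and 1 fell. Acsl3, an acyl-CoA synthetase, fell by 1.05 (SE 0.14, adjusted p = 0.002074), and Lpcat3, which puts arachidonate into phosphatidylcholine, rose by 0.59 (SE 0.13, adjusted p = 0.01584; 0.0578 without control 3). Of 9 ceramide genes tested 1 fell and 0 rose. This was Sptlc2, a subunit of the enzyme that begins sphingolipid synthesis, at −0.89 (SE 0.17, adjusted p = 0.01095) and 21.3 CPM in control 2 against 34.4 to 38.1 CPM in the other controls. Of 8 genes that oxygenate polyunsaturated fatty acids, 3 rose and 1 fell. Ephx2, a soluble epoxide hydrolase, rose by 0.82 (SE 0.16, adjusted p = 0.01085) and Hpgd, which inactivates prostaglandins, by 0.69 (SE 0.15, adjusted p = 0.01734). The call of Hpgd was lost without control 4 (0.0543) and without sorbate 1 (0.0521). Ptgs1, a cyclooxygenase also made by macrophages and endothelium, fell to 8.00 CPM with sorbate, against 14.1 CPM in controls (−0.82, SE 0.18, adjusted p = 0.0161). It stood at 9.55 CPM in control 2, where the markers of those cells were low as well, and their part in this difference was not tested. Its call was lost without control 3, control 4, sorbate 3 or sorbate 4 (adjusted p up to 0.0543).

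Of 10 transcription regulators of the family, all tested, 2 rose and 3 fell. Ppara, the fatty acid receptor PPAR-alpha, rose to 146 CPM with sorbate, against 75.3 CPM in controls (log2 fold change 0.95, SE 0.16, adjusted p = 0.005687). Insig1, which retains the SREBP proteins in the endoplasmic reticulum, fell by 1.31 (SE 0.13, adjusted p = 0.0006079), and Srebf2 fell by 1.03 (SE 0.19, adjusted p = 0.008101). Srebf1 and Insig2, named after their values were seen, had log2 fold changes of 1.03 and −0.99. Over the 8 lists together, 13 of 65 tested genes rose and 10 fell, with a median log2 fold change of −0.03. That is 35.4% called, where 12.4% of all genes tested were called. The lists were chosen with earlier results of these data known, so the 2 shares cannot be compared as a test. Without control 2, 5 genes of the malonyl-CoA list, 4 of acyl activation and transfer, 2 of ceramide synthesis and 3 of oxygenation were called lower. Calls rose over all genes in that fit too, to 2053 higher and 1915 lower, against 818 and 838 with all libraries.

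For the 3 genes with the lowest p, the genes of highest positive correlation in log2 CPM over the 8 libraries were taken. Other family genes, pseudogenes and genes with predicted or clone-based symbols were left out before ranking. They serve as a description, since all pairs share the difference between the groups. For Elovl3 these were Sult1e1 (Pearson's r = 0.97), an estrogen sulfotransferase, Fuca2 (r = 0.96) and Gca (r = 0.96). For Elovl1 they were Nsfl1c (r = 0.98), Fam98b (r = 0.98) and Gripap1 (r = 0.97). For Fads6 they were Prkaa2 (r = 0.998), a catalytic subunit of AMP-activated protein kinase, Fastkd1 (r = 0.995) and Zfyve9 (r = 0.99). Exons of Elovl1 overlap those of Cdc20 on the other strand by 53 bp, and exons of Elovl3 overlap those of Pitx3 by 10 bp. Whether reads were counted by strand is not given in the sources used here. Over the 8 libraries Cdc20 had 144 reads and Elovl1 5549, and Pitx3 had 3 reads and Elovl3 40004.

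**Figure D5:**
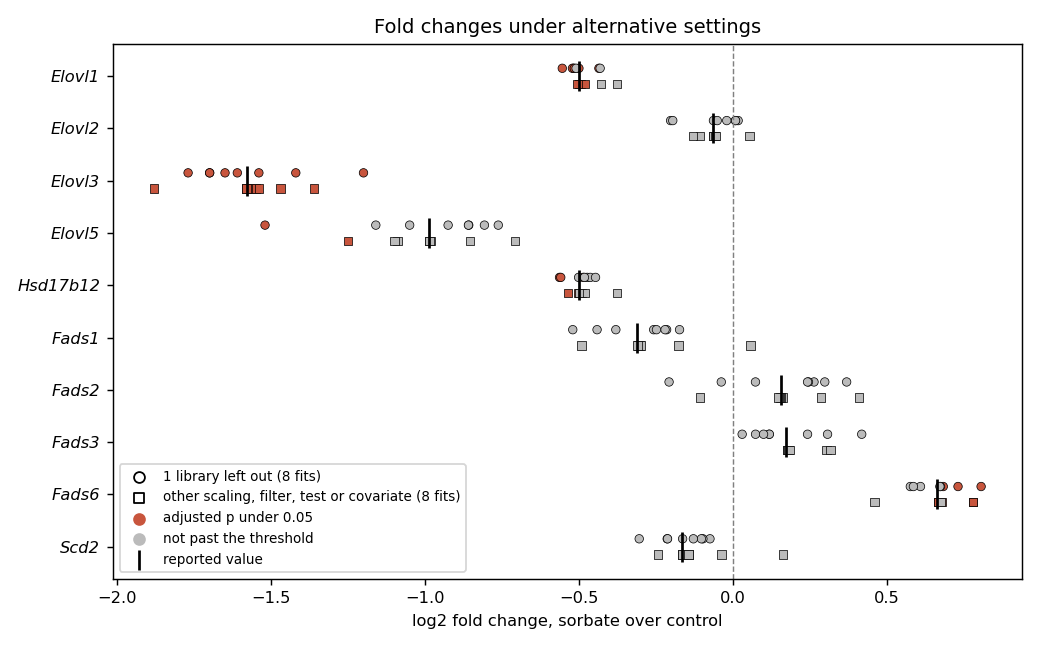
Log2 fold change of each gene under 8 fits that leave out 1 library (circles) and 8 other settings (squares); red marks an adjusted p under 0.05 and the black line the reported value. Elovl3 is red in every fit shown, and the values of Elovl2, Fads1, Fads2 and Scd2 fall on both sides of 0.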

How the data were processed

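Liver RNA was sequenced in 8 poly(A)-selected libraries, per the labels' protocols. The submitters' processing notes name FastQC, HISAT2 2.1.0, Subread, edgeR and the build GRCm38. Settings for counting, for multi-mapped reads and for strand: not given in the sources used here. The authors deposited whole-number read counts per gene, not normalized, and 4 columns that match no sample label were not used. Library totals ran from 15773932 to 25844731 reads.

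Genes with low counts were removed (filterByExpr, minimum count 10), leaving 13312. Libraries were scaled by TMM and tested with edgeR 4.0.16 (quasi-likelihood test, limma 3.58.1, R 4.3.3), and p-values were adjusted over all genes tested by Benjamini-Hochberg at 0.05. Intervals are 95% confidence intervals of the model. CPM per kb used exon unions of GENCODE vM21. The statistical scripts were tested on simulated data. The alternatives were other size factors, library size alone, no filter, DESeq2 1.42.0, limma-voom with and without sample quality weights, 1 surrogate variable (sva 3.50.0), a threshold of 0.1, each library left out and, added after seeing the data, the number in the titles as a block.

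The 10 genes and the gene lists were chosen with earlier results of these data known. Named genes are the 10 genes and up to 3 called genes of lowest p from each list (the 1 of lowest p where none was called). For each of the 3 family genes of lowest p, the 3 genes of highest positive correlation were also named. Family genes, pseudogenes and genes with predicted or clone-based symbols were left out of that ranking.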

Additional observations from a re-analysis of the deposited data

Results flagged for a closer look

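In 9 of 58 groups of 4 libraries, 1 library lay further from the rest than Dixon's 95% critical value for the gap over the range. For normally distributed values, chance gives about 1 in 20, or 2.9 groups. The groups share the same libraries and some of the genes vary together, so the flags are not independent. The counts cannot be compared as a test.

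Sorbate 2 was high for 3 genes of the polyunsaturated route. Elovl5 stood at 528 CPM there and at 166 to 199 CPM in the other sorbate libraries. Fads1 stood at 414 CPM there, with the others at 239 to 262 CPM, and Fads2 at 1130 CPM, with the others at 470 to 552 CPM.

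Control libraries stood apart for 6 genes. Elovl3 had 628 CPM in control 2, where the other controls had 273 to 316 CPM. Ptgs1 was low in control 2, at 9.55 CPM beside 15.2 to 16.4 CPM. Elovl1 had 44.4 CPM in control 1 and 36.8 to 37.9 CPM in the others. Acsl3 was low in control 1, at 16.2 CPM beside 18.9 to 19 CPM. Mlycd was low in control 3, at 68.2 CPM beside 75.9 to 76.8 CPM. Fads3 had 2.31 CPM in control 4 and 1.24 to 1.40 CPM in the others.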

How the results depend on the processing

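Of the 10 genes, 1 higher and 3 lower were called with the size factors of DESeq2 in edgeR, without the filter, with the DESeq2 Wald test and with limma-voom. Library size alone left 1 lower, and 1 surrogate variable left 0 higher and 1 lower; without 1 library the calls ran from 0 to 1 higher and 1 to 4 lower. Elovl2, Fads1, Fads2 and Scd2, none of them called, changed sign in log2 fold change: Elovl2 was 0.0548 with library size alone, 0.0174 without control 2, 0.00868 without control 3 and 0.00906 without sorbate 4 (−0.202 to 0.0174 without 1 library); Fads2 was −0.106 with sample quality weights, −0.0373 without control 4 and −0.207 without sorbate 2 (−0.207 to 0.37 without 1 library); Fads1 was 0.057 and Scd2 0.163 with the surrogate variable. Over all genes, calls higher and lower were 1300 and 550 with library size alone, 1968 and 1944 with quality weights, 323 and 301 with the surrogate variable, 1337 and 1414 at a threshold of 0.1, and 332 to 2053 and 357 to 1915 without 1 library. With library size alone the median over all genes was 0.11 on the log2 scale, and 70.3% of its calls were higher, against 49.4% by TMM. In the gene lists together, 18 genes were lower with quality weights, 6 were higher and 5 lower with the surrogate variable, and 7 to 16 were higher and 5 to 20 lower without 1 library. The causes were not tested. Titles number the libraries within each group but state no pairing, and same-numbered libraries deviated from their group means with correlations of −0.226 to −0.019. With that number as a replicate block, an alternative added after seeing the data, 0 higher and 2 lower of the 10 genes, 411 higher and 354 lower of all genes, and 9 higher and 5 lower of the lists were called. Depth limits Fads3 and Scd2, with 20 to 99 reads per library.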

Other observations

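Fads2 and Elovl5, which act one after the other on essential fatty acids, differed in their ratio between the groups, a comparison chosen after their levels had been seen and 1 of 3 ratios computed. Fads2 over Elovl5, in CPM per kb, was 2.52, 2.28, 2.95 and 3.56 in sorbate libraries 1 to 4, against 1.02, 1.15, 1.5 and 1.12 in controls 1 to 4. Every sorbate library lay above every control, sorbate 2 included, although each gene alone overlapped between the groups. Fads2 over Fads1 was 2.87 to 3.98 with sorbate and 1.62 to 2.89 in controls, and Elovl2 over Elovl5 was 1.04 to 2.22 with sorbate and 0.589 to 1.15 in controls. Both of these overlapped. No test was made, and the share of other gene pairs whose ratio separates the groups was not computed.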
